A study of Mus musculus with 30 samples.

Results

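The 8 genes described here, S100a8, S100a9, Csf3r, Cxcr2, Cxcl1, Cxcl2, Cxcl3 and Cxcl5, are genes of neutrophils and of the chemokine receptor through which neutrophils are recruited. They were taken by symbol and are 8 of the 39676 genes in the counts. RNA was sequenced from 30 whole tumors of B16-F10 mouse melanoma cells, 10 of each type, harvested at day 8 after subcutaneous inoculation into adult female C57BL/6 mice. B16-GFP tumors grew from cells with a retroviral vector for GFP alone, and B16-IFNA4 and B16-IFNA9 tumors from cells whose vector also carried murine IFNα4 or IFNα9. All cells of the 3 types also carried herpes simplex virus glycoprotein B with cyan fluorescent protein, and luciferase with puromycin resistance. Each line is a sorted pool of transduced cells, so a difference between types cannot be told apart from a difference between those lines. The comparisons ask how the level of these genes in the tumor differs when the melanoma cells secrete either type I interferon, and whether it differs between both interferons.

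Neutrophils are short-lived granulocytes that leave the blood and enter inflamed tissue. Their CXCR2 receptor, encoded by Cxcr2, binds CXC chemokines with a Glu-Leu-Arg motif, which in the mouse include the products of Cxcl1, Cxcl2, Cxcl3 and Cxcl5. These ligands are made by epithelial cells, fibroblasts, endothelial cells and macrophages on inflammatory signals, many of them through NF-κB. Csf3r encodes the receptor for granulocyte colony-stimulating factor, which drives neutrophil production, and it is also expressed by monocytes. S100a8 and S100a9 encode the subunits of calprotectin, an abundant protein of the neutrophil cytoplasm that monocytes and stressed keratinocytes make as well.

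The 4 ligand genes lie together on chromosome 5 within 147 kb, from chr5:90759360-90761624 for Cxcl5 to chr5:90903871-90905938 for Cxcl2, all on the plus strand (GENCODE M21, build GRCm38). S100a8 and S100a9 are neighbours on chromosome 3, within 26.7 kb and on opposite strands. Promoter sequences from RefSeq (build GRCm38.p6) were at hand for 7 of the 8 genes, and none was at hand for Cxcl5. Of these 7, the promoters of Cxcl1, Cxcl2 and Cxcl3 hold the letters GGAATTTCC, a core of the NF-κB motif, within 250 bases before the RefSeq start. Only 0.286% of the 32851 promoters hold it on either strand. The bases upstream of these 3 genes are shown because they share this stretch, and of the 3 genes Cxcl2 alone was called in any comparison. The stretch is in capitals, and each sequence reads 5′ to 3′ on the plus strand and ends before the first base of either annotation's transcripts.
Cxcl1, chr5:90891125-90891240: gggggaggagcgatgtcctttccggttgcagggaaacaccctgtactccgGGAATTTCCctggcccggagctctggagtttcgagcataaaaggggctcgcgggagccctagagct
Cxcl2, chr5:90903779-90903870: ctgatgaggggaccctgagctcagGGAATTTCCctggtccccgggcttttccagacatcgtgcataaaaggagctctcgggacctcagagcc
Cxcl3, chr5:90785981-90786100: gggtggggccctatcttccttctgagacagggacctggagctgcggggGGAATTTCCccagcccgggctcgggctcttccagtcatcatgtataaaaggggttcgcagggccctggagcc

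The first capital lies 66 bases before the GENCODE start of Cxcl1, 68 before that of Cxcl2 and 74 before that of Cxcl3. The longer κB consensus, which overlaps this stretch, was found in the same 3 promoters and in that of Csf3r, against 7.25% of all promoters. The interferon-gamma activated site TTCNNNGAA (7.02% of all promoters), the core of the interferon-stimulated response element, GAAANNGAA, (7.13%) and the C/EBP motif TTGCNNAAT (2.11%) were found in none of the 7, searched on both strands. These matches describe letters in a window and not binding.

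Total counts lay between 14598517 and 19788383 per tumor. Unless another fit or a permutation is named, adjusted p-values come from edgeR's quasi-likelihood test of all 30 tumors in a single fit, with Benjamini-Hochberg adjustment over the 15926 genes that had a mean of at least 10 counts, and genes with an adjusted p under 0.05 are called differentially expressed. Levels are TMM-normalized CPM, which are counts scaled to a common library size. Of the 8 genes, 7 were tested, and Cxcl3 stayed under the minimum. B16-GFP tumor 7 stood apart, with the highest summed level of melanocyte markers (24221 CPM, against 7093 to 13127 CPM in the other B16-GFP tumors) and the lowest Ptprc (19.6 CPM), the gene of the pan-leukocyte protein CD45. Without this tumor the same numbers of the 7 genes were called, 4, 5 and 2 in the 3 comparisons. The replicate tumors are biological replicates by their labels.

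Several defining neutrophil genes were at or near 0 in all 3 tumor types. Ly6g, the surface gene by which mouse neutrophils are commonly identified, had at least 1 count in 16 of 30 tumors and at most 5 in any. Its mean was 0.0065 CPM in B16-GFP, 0.123 in B16-IFNA4 and 0.067 in B16-IFNA9 tumors. Of the genes for neutrophil granule proteins, Camp reached at most 8 counts, Ngp 4 and Mpo 4, while Mmp8 reached 50, Prtn3 90, Ltf 165, Lcn2 380 and Mmp9 1106. S100a8 and S100a9, which are among the most abundant transcripts of a mouse neutrophil, had medians of 1.08 to 3.56 CPM. The name neutrophil genes therefore describes where these genes are best known, and the RNA of whole tumors does not show which cells carried it. Fewer cells of a type and less RNA per cell cannot be told apart in these samples.

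**Figure D1:**
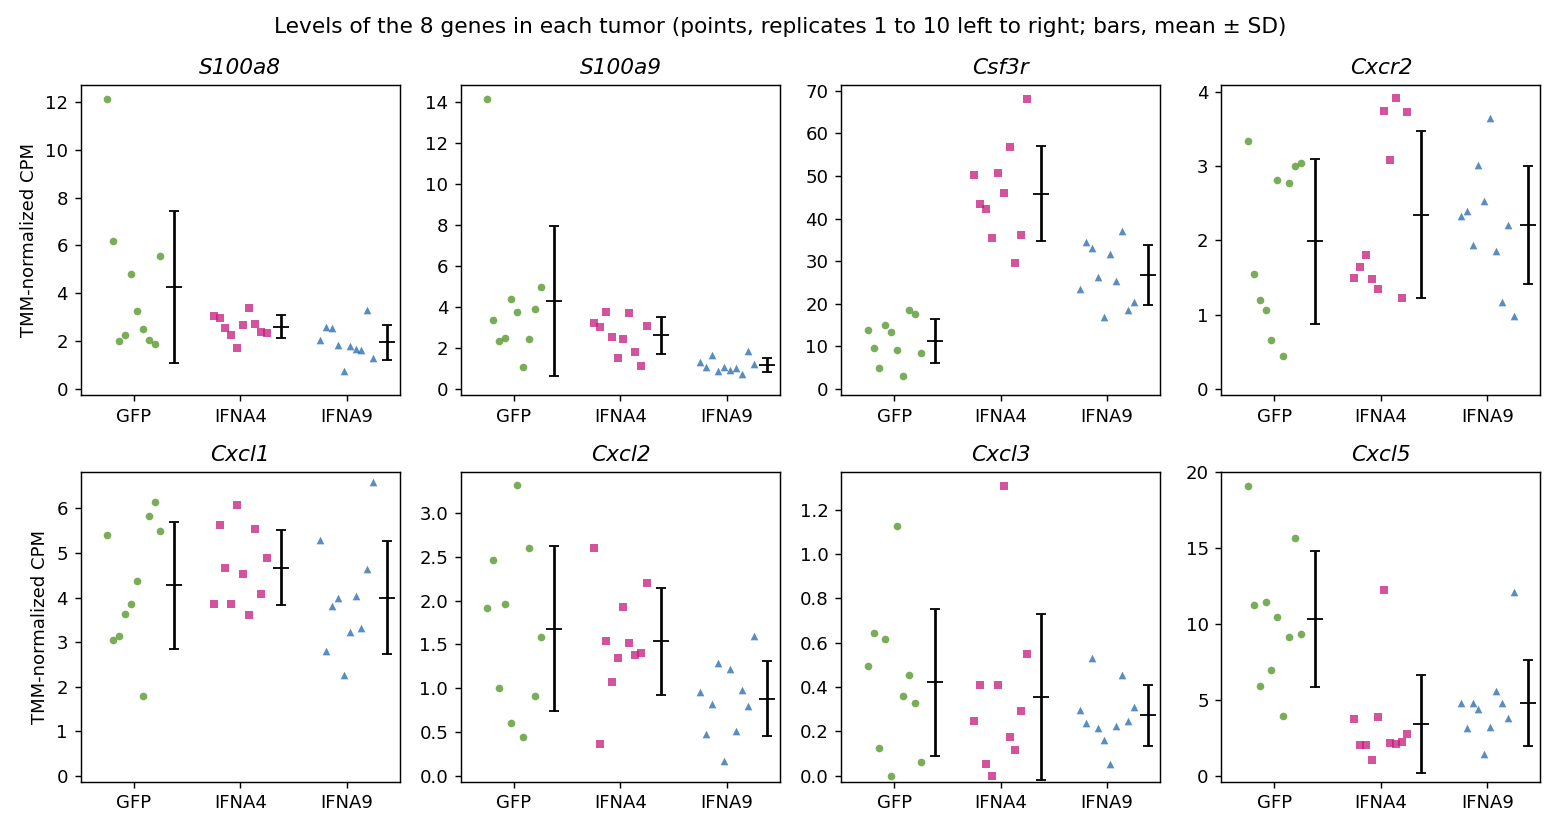
Level of each of the 8 genes in every tumor, in TMM-normalized CPM on linear axes from 0, by tumor type; points are tumors and the bars to their right give mean ± SD (n = 10). Csf3r in B16-IFNA4 tumors lies above every B16-GFP tumor, and 9 of 10 B16-IFNA4 tumors lie below every B16-GFP tumor for Cxcl5.

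The 8 genes did not move as a group. In B16-IFNA4 against B16-GFP tumors, 4 of the 7 tested were differentially expressed, 1 higher (Csf3r) and 3 lower (S100a8, S100a9 and Cxcl5). This stands against 65.4% of all genes tested, 31.3% higher and 34.1% lower. In B16-IFNA9 against B16-GFP tumors 5 of 7 were called, 1 higher and 4 lower, with Cxcl2 added to the same genes, against 55.7% of all genes (26.9% higher, 28.9% lower). Between B16-IFNA9 and B16-IFNA4 tumors, S100a9 and Csf3r were called, both lower in B16-IFNA9 tumors, against 17.8% of all genes (10.5% higher, 7.25% lower). Non-overlapping tumors were seen only for Csf3r in B16-IFNA4 against B16-GFP tumors, against 18.5% of all genes in that comparison. No member was free of overlap in B16-IFNA9 against B16-GFP (7.79% of all genes) or B16-IFNA9 against B16-IFNA4 (2.83%). Shares among so few genes are coarse, and whether they differ from those of all genes was not tested. Both comparisons against B16-GFP use the same 10 control tumors.

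**Figure D2:**
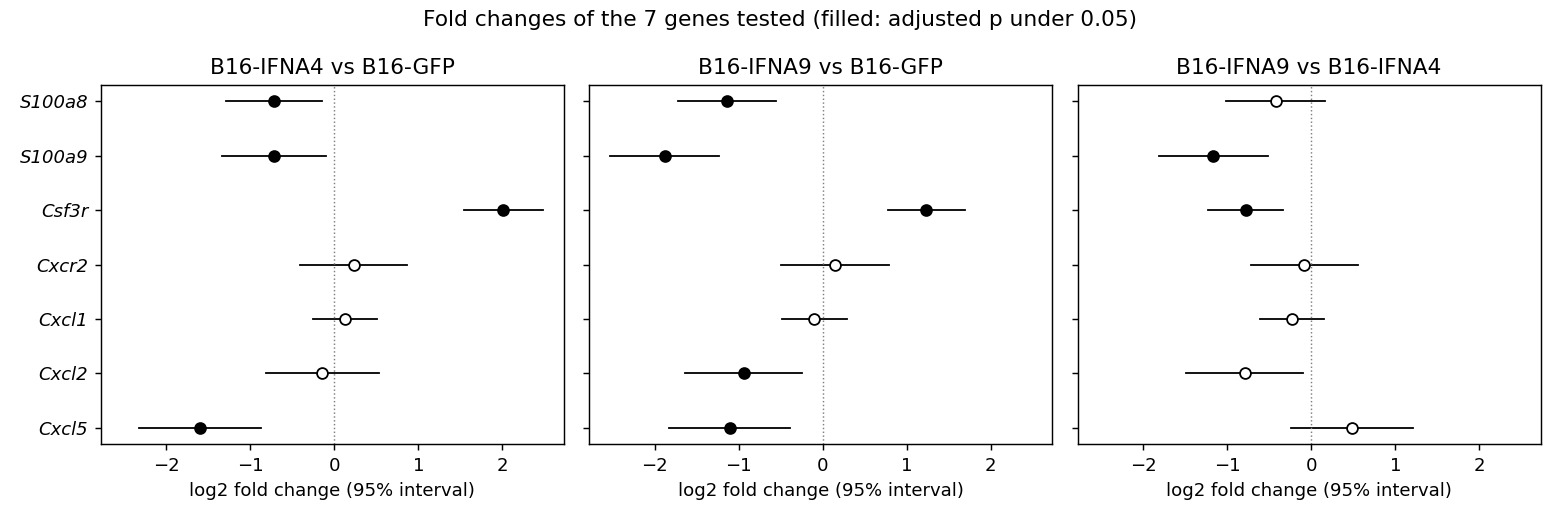
Log2 fold change with its 95% interval for the 7 genes tested, in each of the 3 comparisons; filled points have an adjusted p under 0.05 and the dotted line marks no difference. Csf3r was called higher against B16-GFP in both interferon types (2.01 and 1.23), and the intervals of Cxcr2 and Cxcl1 include 0 in all 3 panels.

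S100a8 and S100a9 were lowest in B16-IFNA9 tumors. S100a8 ran from 1.89 to 12.1 CPM in B16-GFP tumors (median 2.88), from 1.69 to 3.38 in B16-IFNA4 tumors (median 2.62) and from 0.753 to 3.30 in B16-IFNA9 tumors (median 1.81). S100a9 ran from 1.07 to 14.2 CPM in B16-GFP tumors (median 3.56), from 1.11 to 3.74 in B16-IFNA4 tumors (median 2.78) and from 0.715 to 1.84 in B16-IFNA9 tumors (median 1.08). The spread was widest in B16-GFP tumors, where tumor 1 held the highest level of both genes and the next tumors reached 6.20 CPM for S100a8 and 5.00 CPM for S100a9. All 10 B16-IFNA9 tumors lay under the B16-GFP median and under the B16-IFNA4 median for S100a9, and 6 of them lay under every B16-IFNA4 tumor.

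S100a9 was lower in B16-IFNA9 than in B16-GFP tumors by a log2 fold change of −1.88 (SE 0.32, adjusted p = 1.43e-05) and lower than in B16-IFNA4 tumors by −1.16 (SE 0.32, adjusted p = 0.0100). These calls held when any single tumor was left out. S100a8 was lower in B16-IFNA9 than in B16-GFP tumors (log2 fold change −1.14, SE 0.29, adjusted p = 0.00132). Between B16-IFNA9 and B16-IFNA4 tumors its difference of −0.42 was within a 95% interval of −1.01 to 0.17 (adjusted p = 0.342).

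The lower level of both genes in B16-IFNA4 than in B16-GFP tumors rested on B16-GFP tumor 1. With all tumors the log2 fold changes were −0.72 for S100a8 (SE 0.28, adjusted p = 0.0269) and −0.72 for S100a9 (SE 0.30, adjusted p = 0.0377). Without tumor 1 they were −0.40 (adjusted p = 0.140) and −0.30 (adjusted p = 0.262). The call for S100a9 was also lost without B16-GFP tumor 10 or B16-IFNA4 tumor 5, 6, 8 or 9, with adjusted p from 0.0515 to 0.0702. B16-IFNA9 tumors remained lower than B16-GFP tumors without tumor 1, with log2 fold changes of −0.80 for S100a8 (adjusted p = 0.00635) and −1.44 for S100a9, both called.

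B16-GFP tumors 1 and 2, the highest for S100a8, were also the highest for S100a3, a hair cuticle gene of the same family, with 72.1 and 299 CPM against at most 0.45 CPM in the other 8. S100a7a, an epidermal member, was at 13.1 and 45.1 CPM there and at most 0.63 CPM in the other 8. Leaving out both tumors, an alternative chosen after seeing the data, gave −0.63 for S100a8 in B16-IFNA9 against B16-GFP tumors (adjusted p = 0.0221) and −1.43 for S100a9 (adjusted p = 3.45e-05). B16-IFNA9 tumors 5 and 6 also held S100a3, at 12.9 and 30.5 CPM, and had 0.753 and 1.80 CPM of S100a8. The 15 keratinocyte markers summed to 8038 and 6681 CPM in B16-GFP tumors 1 and 2, within the range of the other B16-GFP tumors (1259 to 8868 CPM). The part of skin RNA in the level of S100a8 and S100a9 was not tested.

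**Figure D3:**
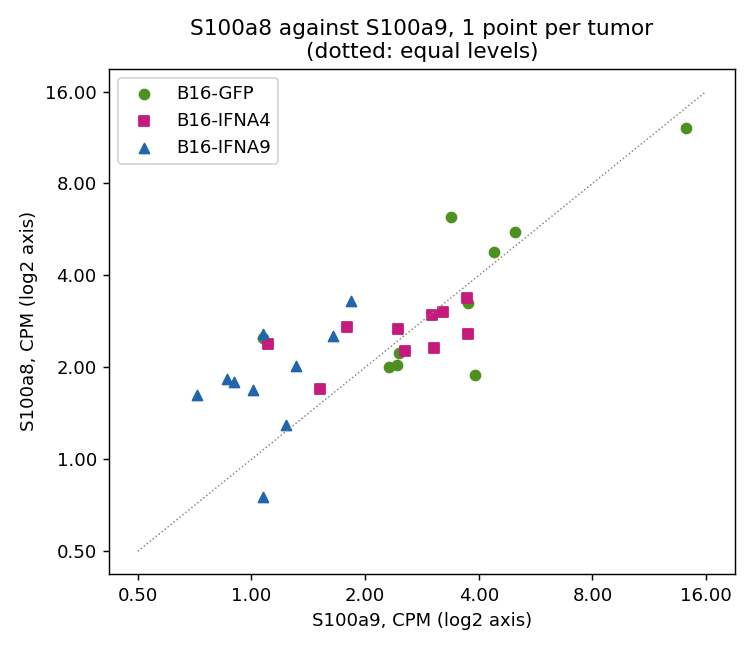
S100a8 against S100a9 in each tumor, in CPM on log2 axes, with the dotted line at equal levels. B16-GFP tumor 1 is alone at the upper right (14.2 and 12.1 CPM), and 9 of 10 B16-IFNA9 tumors lie above the line.

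The ratio of S100a8 to S100a9 counts, not corrected for length, had a median of 0.888 in B16-GFP, 0.963 in B16-IFNA4 and 1.73 in B16-IFNA9 tumors. It was above 1 in 4, 4 and 9 of 10 tumors. These ratios are given as a description without a test.

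Csf3r rose in both interferon types. It ran from 3.04 to 18.4 CPM in B16-GFP tumors (median 11.4), from 29.7 to 68.1 in B16-IFNA4 tumors (median 44.7) and from 16.8 to 37.0 in B16-IFNA9 tumors (median 25.8). Every B16-IFNA4 tumor and 9 of 10 B16-IFNA9 tumors lay above all B16-GFP tumors. Mean CPM was 4.05-fold higher in B16-IFNA4 and 2.36-fold higher in B16-IFNA9 than in B16-GFP tumors.

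The log2 fold change of Csf3r was 2.01 in B16-IFNA4 tumors (SE 0.23, adjusted p = 9.52e-09) and 1.23 in B16-IFNA9 tumors (SE 0.22, adjusted p = 3.80e-05). B16-IFNA9 tumors were lower than B16-IFNA4 tumors by −0.78 (SE 0.22, adjusted p = 0.0124), and 6 of the 10 lay under every B16-IFNA4 tumor. The order B16-IFNA4, B16-IFNA9, B16-GFP thus held between all neighbours. The 3 calls remained without any single tumor. Of the 50-base stretches of Csf3r transcripts, 10.5% also occur in other genes. Part of its reads may have been counted elsewhere, and reads of those genes as Csf3r. For Cxcr2 the share was 4.01%.

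Cxcr2 showed no difference past the threshold. It ran from 0.447 to 3.34 CPM in B16-GFP tumors (median 2.16), from 1.22 to 3.92 in B16-IFNA4 tumors (median 1.71) and from 0.985 to 3.65 in B16-IFNA9 tumors (median 2.26), and the types overlapped over most of their range. The log2 fold change against B16-GFP was 0.23 in B16-IFNA4 tumors (95% interval −0.41 to 0.87, adjusted p = 0.524) and 0.15 in B16-IFNA9 tumors (−0.49 to 0.79, adjusted p = 0.704). Between B16-IFNA9 and B16-IFNA4 tumors it was −0.08 (−0.72 to 0.55, adjusted p = 0.888). At 5 to 69 counts per tumor, the interval for B16-IFNA4 tumors includes a rise of 0.87 on the log2 scale.

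Csf3r and Cxcr2 thus gave different calls, and the difference between their fold changes was not tested. The ratio of Csf3r to Cxcr2 counts, as a description, had a median of 5.99 in B16-GFP, 23.8 in B16-IFNA4 and 11.9 in B16-IFNA9 tumors. Csf3r moved with leukocyte and monocyte markers, which were higher in the same types. Ptprc ran from 19.6 to 118 CPM in B16-GFP, from 292 to 768 in B16-IFNA4 and from 161 to 475 in B16-IFNA9 tumors. The 9 monocyte markers summed to 200 to 636 CPM, 1548 to 2966 CPM and 828 to 2008 CPM. Of these 9, 8 were higher in B16-IFNA4 and 7 in B16-IFNA9 than in B16-GFP tumors, and 5 were lower in B16-IFNA9 than in B16-IFNA4 tumors, against 31.3%, 26.9% and 7.25% of all genes tested. Their part in the level of Csf3r was not tested.

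**Figure D4:**
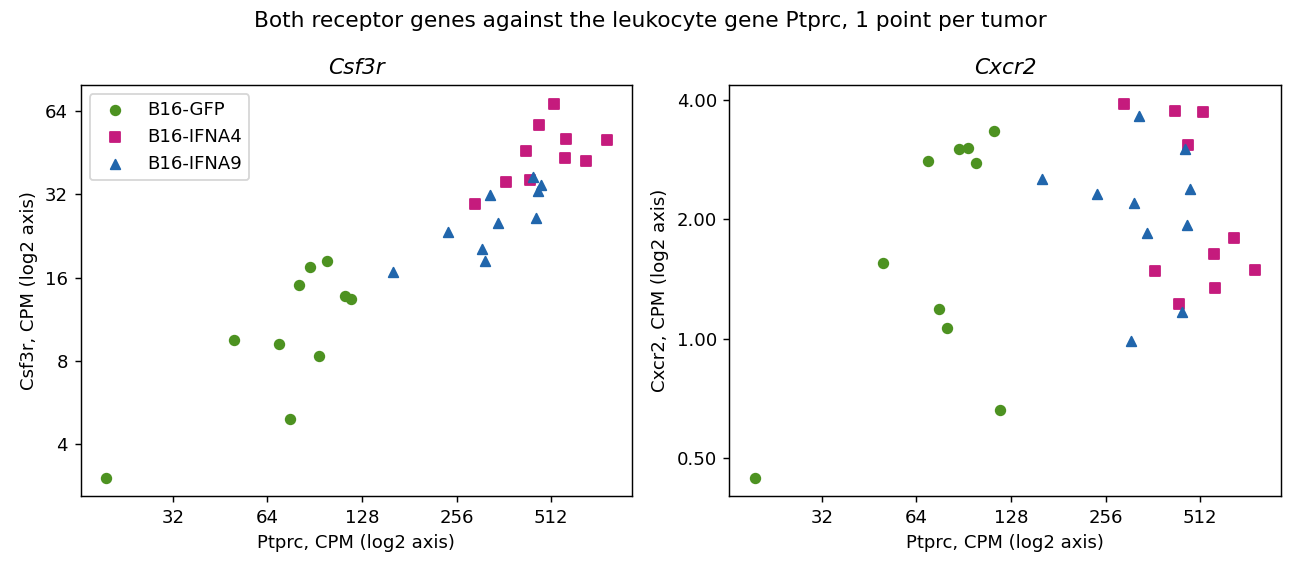
Csf3r (left) and Cxcr2 (right) against the leukocyte gene Ptprc in each tumor, in CPM on log2 axes, coloured by tumor type. Csf3r spans 3.04 to 68.1 CPM along Ptprc, while Cxcr2 stays between 0.447 and 3.92 CPM over the same span of Ptprc.

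Cxcl5 was lower in both interferon types. It ran from 3.93 to 19.1 CPM in B16-GFP tumors (median 9.90), from 1.01 to 12.3 in B16-IFNA4 tumors (median 2.18) and from 1.45 to 12.1 in B16-IFNA9 tumors (median 4.56). In B16-IFNA4 tumors, 9 of 10 lay below every B16-GFP tumor, and tumor 6 alone, at 12.3 CPM, lay far above the next at 3.85 CPM. In B16-IFNA9 tumors, 4 of 10 lay below every B16-GFP tumor, and tumor 10 at 12.1 CPM lay above the next at 5.55 CPM. All 4 melanocyte markers in the counts were also called lower in both interferon types (34.1% and 28.9% of all genes tested), with median summed levels of 8999, 2943 and 4370 CPM in B16-GFP, B16-IFNA4 and B16-IFNA9 tumors, and their part in the Cxcl5 result was not tested.

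The log2 fold change of Cxcl5 against B16-GFP was −1.60 in B16-IFNA4 tumors (SE 0.36, adjusted p = 0.00029) and −1.11 in B16-IFNA9 tumors (SE 0.35, adjusted p = 0.00855). Over the fits without a single tumor these ranged from −2.09 to −1.47 and from −1.38 to −0.95, and all were called. The difference of 0.49 between B16-IFNA9 and B16-IFNA4 tumors had a 95% interval of −0.24 to 1.22 (adjusted p = 0.376). It depended on single tumors, at 0.98 (adjusted p = 0.0232) without B16-IFNA4 tumor 6 and 0.22 (adjusted p = 0.751) without B16-IFNA9 tumor 10.

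Cxcl1 was found at a like level in the 3 types. It ran from 1.79 to 6.14 CPM in B16-GFP tumors (median 4.12), from 3.61 to 6.07 in B16-IFNA4 tumors (median 4.60) and from 2.26 to 6.59 in B16-IFNA9 tumors (median 3.90). Its log2 fold changes had the narrowest intervals of the 7 genes. They were 0.13 for B16-IFNA4 against B16-GFP (−0.26 to 0.51, adjusted p = 0.563), −0.10 for B16-IFNA9 against B16-GFP (−0.48 to 0.28, adjusted p = 0.669) and −0.23 for B16-IFNA9 against B16-IFNA4 (−0.61 to 0.16, adjusted p = 0.449). The ratio of Cxcl1 to Cxcl5 counts, given without a test, had medians of 0.437, 1.81 and 0.909, and was above 1 in 0, 9 and 4 of 10 tumors of B16-GFP, B16-IFNA4 and B16-IFNA9.

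Cxcl2 was lower in B16-IFNA9 than in B16-GFP tumors, and its other comparisons did not pass the threshold. It ran from 0.447 to 3.32 CPM in B16-GFP tumors (median 1.75), from 0.358 to 2.60 in B16-IFNA4 tumors (median 1.46) and from 0.161 to 1.60 in B16-IFNA9 tumors (median 0.888). All 10 B16-IFNA9 tumors lay under the B16-GFP median. The log2 fold change was −0.94 for B16-IFNA9 against B16-GFP (SE 0.34, adjusted p = 0.0206), and without B16-GFP tumor 6 it was −0.78 (adjusted p = 0.0540). B16-IFNA4 tumors did not differ from B16-GFP tumors past the threshold (−0.14, 95% interval −0.82 to 0.53, adjusted p = 0.710). The difference of −0.79 between B16-IFNA9 and B16-IFNA4 tumors did not pass either (adjusted p = 0.108).

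Cxcl3 was near the limit of detection. It had 0 to 18 counts in B16-GFP, 0 to 23 in B16-IFNA4 and 1 to 9 in B16-IFNA9 tumors, with medians of 0.405, 0.270 and 0.242 CPM. Tested only when no filter on low counts was applied, its log2 fold changes were −0.23 (adjusted p = 0.771), −0.62 (adjusted p = 0.384) and −0.39 (adjusted p = 0.718) in the order of comparisons above. Of the 50-base stretches of Cxcl2, 5.84% are shared with Cxcl3, so the counts of this pair may be split between them.

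Per kilobase of exonic length, the median level in B16-GFP tumors was 6.82 CPM for S100a9, 5.32 for Cxcl5, 4.15 for S100a8, 3.17 for Csf3r, 2.19 for Cxcl1, 0.845 for Cxcl2, 0.709 for Cxcr2 and 0.116 for Cxcl3. In B16-IFNA4 tumors Csf3r came first at 12.4 CPM per kilobase, and Cxcl5 was at 1.17, under Cxcl1 at 2.45. The order of Cxcl1 and Cxcl5 by median thus differed between these types.

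The remaining genes of the CXCR2 axis were mostly too low to test. Cxcr1, the related receptor, reached at most 20 counts, Ppbp 13, Cxcl15 52 and Cxcl17 6. Ackr1, an endothelial and erythroid receptor that binds these chemokines without signalling, was higher in B16-IFNA4 than in B16-GFP tumors (0.77, adjusted p = 0.000192) and at 0.32 in B16-IFNA9 tumors (adjusted p = 0.103).

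Of the other genes of the neutrophil list, 12 of 22 tested rose in B16-IFNA4 tumors and 8 of 22 in B16-IFNA9 tumors, where 31.3% and 26.9% of all genes tested were called higher. Of 36 listed, 30 were in the counts and 22 were tested. In B16-IFNA4 against B16-GFP tumors 1 was lower, with a median log2 fold change of 0.79 against 0.01 over all genes tested. In B16-IFNA9 tumors 2 were lower (median 0.30), and between B16-IFNA9 and B16-IFNA4 tumors 8 were lower and 0 higher (median −0.48). Of all genes tested, 34.1%, 28.9% and 7.25% were called lower in these 3 comparisons. Several of the genes that rose are also expressed by lymphocytes, monocytes or macrophages, such as Fpr2, a formyl peptide receptor (2.02 and 1.39, in B16-IFNA4 and B16-IFNA9 tumors), and Pglyrp1, an antibacterial protein (1.84 and 1.73). Cd177, a neutrophil surface gene, rose by 2.11 and 0.91 from a mean of 0.674 CPM, and Mmp8, neutrophil collagenase, by 2.08 in B16-IFNA4 tumors from 0.465 CPM.

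Clec4e, a C-type lectin of myeloid cells, rose by 1.86 and 0.57, and Hdc, which makes histamine, by 1.34 in B16-IFNA4 tumors. In B16-IFNA9 tumors Hdc was at −0.12 (adjusted p = 0.639). Mmp9, gelatinase B, fell by 1.03 and 0.86 on the log2 scale. Without B16-GFP tumor 8 it was at −0.51 (adjusted p = 0.0438) and, no longer called, at −0.34 (adjusted p = 0.193). Clec4d fell by 0.61 in B16-IFNA9 tumors. The call for Clec4e in B16-IFNA9 tumors held in 23 of 30 fits without a single tumor. The granule genes Ltf, Lcn2 and Prtn3 did not pass the threshold in any comparison, while Mmp8 and Mmp9 did in some. The summed level of the 30 genes ran from 102 to 410 CPM in B16-GFP, from 560 to 749 in B16-IFNA4 and from 216 to 525 in B16-IFNA9 tumors. Of these genes Asprv1 had the highest mean, at 137, 216 and 162 CPM in the same order of types. By median, the monocyte markers, Ptprc and the 15 keratinocyte markers (6291, 8982 and 7839 CPM) ranked the types alike. The macrophage markers did not (1462, 1078 and 1520 CPM). The part of these cells in the sum was not tested.

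**Figure D5:**
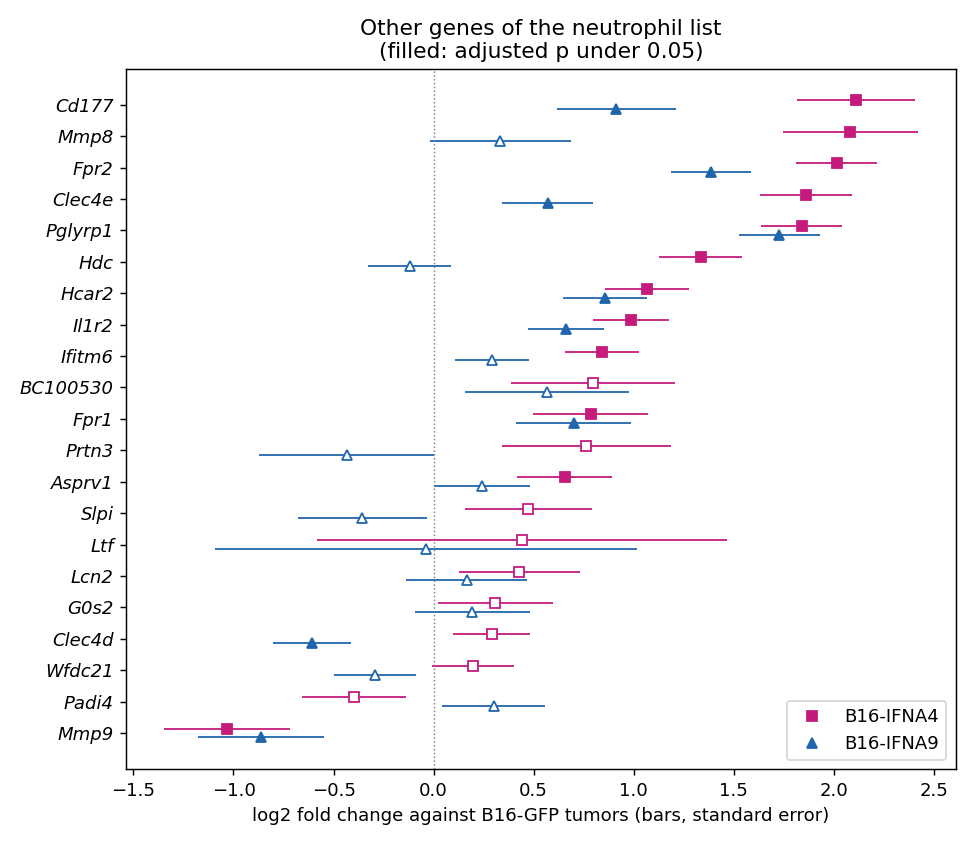
Log2 fold change against B16-GFP tumors, with its standard error, for genes of the neutrophil list that were tested and are reported here, squares for B16-IFNA4 and triangles for B16-IFNA9; filled symbols have an adjusted p under 0.05. Cd177, Mmp8 and Fpr2 lie above 2 in B16-IFNA4 tumors, and Mmp9 lies lowest at −1.03 and −0.86, which were −0.51 and −0.34 without B16-GFP tumor 8.

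Genes known to induce the ligands or to regulate that response, inhibitors among them, were called higher in part. Of 22 tested, 16 were higher and 0 lower in B16-IFNA4 tumors (median log2 fold change 0.71), 11 higher and 0 lower in B16-IFNA9 tumors (median 0.33), and 7 were lower and 0 higher in B16-IFNA9 against B16-IFNA4 tumors (median −0.29). Over all genes tested, 31.3% and 26.9% were called higher in the 2 interferon types and 7.25% lower between them, with medians of 0.0092, −0.0031 and −0.0055. Tnf rose by 2.63 and 1.68 and Nfkbiz, an NF-κB cofactor of the interleukin-17 response, by 1.16 and 0.60. The inhibitors Il1rn, the interleukin-1 receptor antagonist, and Tnfaip3, a brake on NF-κB, rose as well, by 1.33 and 0.54 and by 1.10 and 0.55, the last of these called in 19 of 30 fits without a single tumor. Il1b was higher in B16-IFNA4 tumors (0.67, adjusted p = 0.00635) and at 0.12 in B16-IFNA9 tumors (adjusted p = 0.631). Il17ra, the interleukin-17 receptor, was higher in B16-IFNA4 tumors (0.76, adjusted p = 5.25e-06) and at 0.26 in B16-IFNA9 tumors (adjusted p = 0.0731). Il17a had 0 counts in all 30 tumors and Csf3, which encodes granulocyte colony-stimulating factor, at most 5. Ptprc was higher in the same types by 2.65 and 2.14, and the monocyte markers by medians of 2.27 and 1.65. The part of leukocytes in the changes of the inducers and regulators was not tested.

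Of 6 transcription factors of granulocytes, 4 were higher and 1 lower in B16-IFNA4 tumors, 3 higher and 1 lower in B16-IFNA9 tumors, and 0 were called between the interferon types. Of all genes tested, 31.3% were higher and 34.1% lower in B16-IFNA4 tumors, 26.9% and 28.9% in B16-IFNA9 tumors, and 17.8% were called between the types. Of the 4, Cebpb (0.41, adjusted p = 0.0448) was called in 15 of 30 fits without a single tumor. Gfi1 rose by 2.51 and 2.43 from a low mean of 0.348 CPM in B16-GFP tumors. Spi1, the myeloid factor PU.1, rose by 1.23 and 0.80, and Cebpd fell by 0.60 and 0.72 on the log2 scale. In the remaining S100 family 4 of 11 were higher and 3 lower in B16-IFNA4 tumors, and 3 were higher and 3 lower in B16-IFNA9 tumors, shares near those of all genes just given. S100a4 (0.93 and 0.37), S100a10 (0.61 and 0.30) and S100a11 (0.50 and 0.36) rose in both, where the call for S100a4 in B16-IFNA9 tumors held in 5 of 30 fits without a single tumor. S100a1 fell by 0.56 and 0.65 on the log2 scale. Its level in B16-GFP tumors reached 274 CPM around a median of 90.3, against medians of 73.1 in B16-IFNA4 and 66.6 in B16-IFNA9 tumors. S100a3 and S100a7a were also called lower, with the high values of B16-GFP tumors 1 and 2 among the controls. Without B16-GFP tumor 2, S100a7a was at −0.93 (adjusted p = 0.245) and −0.19 (adjusted p = 0.829), and S100a3 was at −4.33 (adjusted p = 0.00443) and −0.81 (adjusted p = 0.528). That fit kept B16-GFP tumor 1, with 72.1 CPM of S100a3. Over all tumors the median of S100a3 was 0.333 CPM in B16-GFP, 0.463 in B16-IFNA4 and 0.375 in B16-IFNA9 tumors, so its lower call rested on few control tumors. Between the interferon types, S100a4, S100a6 and S100a10 were lower in B16-IFNA9 tumors and 0 of the 11 were higher, with S100a10 called in 24 of 30 fits without a single tumor.

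Of 7 tested CXC chemokines that do not signal through CXCR2, 4 were higher and 0 lower in each interferon type, where 31.3% and 26.9% of all genes tested were higher and 34.1% and 28.9% lower. Between the interferon types 0 were called, against 17.8% of all genes. Cxcl9, a ligand of CXCR3 on T and NK cells, rose by 4.11 and 3.92, Cxcl10 by 2.87 and 2.61, Cxcl11 by 4.12 and 3.68, and Cxcl16 by 1.11 and 0.79. The other 3 did not pass the threshold: Cxcl12 was at 0.06 and −0.16, Cxcl13 at −0.66 and −0.95 and Pf4, platelet factor 4, at −0.38 and −0.35. Without B16-GFP tumor 8, Cxcl13 was at 1.04 (adjusted p = 0.0136) and 0.75 (adjusted p = 0.0774).

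Within tumor types the members varied together in few pairs. Pearson's r and Spearman's rho were taken over the 30 tumors after each type's mean was removed, with 100000 permutations within types and Benjamini-Hochberg adjustment over 56 relations. S100a8 and S100a9 had r = 0.67 (permutation p = 0.00044, adjusted 0.00616) and rho = 0.53 (p = 0.0044, adjusted 0.0821), and r = 0.55 without B16-GFP tumor 1 and B16-IFNA9 tumor 5, the tumors farthest from the median. Cxcl5 had r = 0.59 with Cxcl1 (permutation p = 0.0003, adjusted 0.00616) and rho = 0.42 (adjusted 0.224), and r = 0.44 without B16-GFP tumor 7 and B16-IFNA9 tumor 10. With Cxcl2 it had r = 0.56 (permutation p = 0.00239, adjusted 0.0268) and rho = 0.47 (adjusted 0.134), and r = 0.49 without B16-IFNA9 tumor 5 and B16-IFNA4 tumor 2. None of these rho passed the adjustment.

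Csf3r had r = 0.74 with Ptprc (permutation p = 0.00013, adjusted 0.00616; rho = 0.64, adjusted 0.023) and r = 0.68 with the monocyte markers (permutation p = 0.00037, adjusted 0.00616; rho = 0.60, adjusted 0.026). Without B16-GFP tumors 7 and 3 these were 0.66 and 0.75. It had r = 0.62 with the other neutrophil genes (adjusted permutation p = 0.0505) and r = 0.61 with the macrophage markers (adjusted permutation p = 0.067). Csf3r with Cxcr2 had r = 0.38 (permutation p = 0.0877, adjusted 0.181) and 0.11 without those tumors. S100a8 and S100a9 had no relation past the adjusted threshold with Csf3r, Cxcr2, Ptprc, or the summed markers of monocytes, macrophages, keratinocytes or the other neutrophil genes.

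The genes whose levels were most like each member over the 30 tumors, after each type's mean was removed, are given as a description. For Csf3r they were Pik3r5 (r = 0.91), a phosphoinositide 3-kinase subunit of leukocytes, Il10ra (0.90), the interleukin-10 receptor, and Slc15a3 (0.90). For Cxcl5 they included Tnc (0.81), the matrix protein tenascin C, and Ccn4 (0.79), neither of them called in any comparison. For Cxcl1 they were Ahr, Lhfp and Cep152 (0.77 to 0.79), for Cxcl2 Slc16a6, Gm37019 and Gm44199 (0.69 to 0.74) and for Cxcr2 Gm11597, Sprr1b and Sh2d5 (0.68 to 0.71). For S100a8 they were Hace1, Yod1 and Hook1 (0.79 to 0.86) and for S100a9 Gm49783, Tbce and Zfp607a (0.75 to 0.79). Without the 2 tumors farthest from the median, B16-GFP tumor 1 among them, the values for S100a9 fell to between 0.52 and 0.68.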

How the data were processed

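RNA from 30 whole tumors, 10 per type, was analysed with types and replicate numbers from the labels. Libraries from a stranded mRNA kit gave 50-base single-end reads, which the authors checked with FastQC 0.11.3 and aligned with HISAT2 2.0.4. The submitters' processing notes give the build as mm10, and the methods text gives another name. The deposited values are raw counts per gene from summarizeOverlaps, whole numbers without normalization. The annotation release, strand setting and treatment of reads with several alignments are not given in the sources used here. Gene symbols were taken from GENCODE M21 (39495 of 39676 identifiers), so coordinates are of that annotation.

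Counts were analysed with edgeR 4.0.16 in R 4.3.3. The fit used TMM scaling and a mean of at least 10 counts. Log2 CPM took a prior count of 2, standard errors were derived from the fold change and the F statistic, and tests are two-sided. On data simulated with a common spread for all genes, the comparison of B16-IFNA4 with B16-GFP recovered 189 of 200 changed genes among 15939 tested. It called 13 unchanged genes. Spread in the tumors differs by gene, so these numbers do not give the power for the results above. Alternatives were DESeq2 1.42.0, its size factors, library totals, filterByExpr, no filter, only the 20 tumors compared, robust empirical Bayes, the replicate block and leaving out each tumor. Tumors with the same number did not deviate together. Members and gene lists were chosen with earlier results of these data known. Named genes are the 8 members, genes of the lists, and the 3 genes most correlated with each member tested. Some listed genes were not analysed here, and some genes that the rule names are not reported. Plots were made with Python 3.11.15 and matplotlib 3.10.9.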

Additional observations from a re-analysis of the deposited data

Results flagged for a closer look

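In 24 groups of 10 values, 8 genes in 3 tumor types, 2 tumors lay far from the rest of their group by Dixon's criterion on log2 CPM, where chance flags about 1 group in 20, or 1.2 here. Cxcl5 in B16-IFNA4 tumor 6 was at 3.63 on the log2 scale (12.3 CPM), against at most 3.85 CPM in the other 9 tumors of that type. The same tumor had the highest Cxcl3 of its type, at 1.30 CPM. Cxcl2 in B16-IFNA4 tumor 2 was at −1.08 on the log2 scale (0.358 CPM, 7 counts), against at least 1.07 CPM in the other 9 tumors.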

How the results depend on the processing

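Of 840 values of single members under the alternatives, 815 kept their direction and their side of the threshold, 18 lost their call, 1 gained it and 6 changed sign. The calls for S100a8, S100a9, Csf3r and Cxcl5 in B16-IFNA9 against B16-GFP, for Csf3r and Cxcl5 in B16-IFNA4 against B16-GFP and for S100a9 and Csf3r in B16-IFNA9 against B16-IFNA4 tumors were kept under all alternatives run. The member genes called in B16-IFNA4 against B16-GFP tumors fell from 4 to 2 with the replicate block and with B16-GFP tumors 1 and 2, or 1, 2 and 7, left out (both chosen after seeing the data), and ran from 2 to 4 over the fits without a single tumor. The genes lost were S100a8 and S100a9. With the replicate block they had adjusted p = 0.0774 and 0.106, although the numbers did not pair the tumors (2, 2 and 0 of 10 pairs correlated above 0.1). S100a9 in that comparison was also lost with library totals (adjusted p = 0.0578), without a filter (0.0586) and with only the 20 tumors compared (0.0764). Cxcl2 in B16-IFNA9 against B16-GFP tumors was lost with B16-GFP tumors 1 and 2 left out (adjusted p = 0.0558). Values near 0 changed sign: Cxcl2 in B16-IFNA4 against B16-GFP tumors ran from −0.26 to 0.016 without single tumors, and Cxcr2 in B16-IFNA9 against B16-IFNA4 tumors ran from −0.16 to 0.028 in such fits and was 0.0043 with the replicate block. Over all genes, B16-IFNA9 against B16-IFNA4 gave 2833 calls, and 4332 with only the 20 tumors compared. Fits without a single tumor gave from 2106 calls, without B16-IFNA9 tumor 10, to 3801, without B16-GFP tumor 7. The latter is not among the tumors compared, but enters the shared estimate of spread. The causes were not tested. Depth limits Cxcl3 most, and then Cxcl2 (3 to 53 counts per tumor) and Cxcr2 (5 to 69).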
